A study of Mus musculus with 24 samples.

Results

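The response to TGF-β1 was measured in mouse macrophages in which a myeloid Cre recombinase targets Smad3. The samples were chosen by their labels: 3 libraries of MyS3KO macrophages treated with TGF-β1 against 3 libraries of untreated MyS3KO macrophages, 6 of the 24 libraries in the series. MyS3KO mice carry 2 floxed Smad3 alleles (Smad3fl/fl) and LyzM-Cre, in which the lysozyme gene Lyz2 drives the recombinase in myeloid cells. Treated cells received 10 ng/ml TGF-β1 for 4 hours, and untreated cells received none. Cells of other genotypes serve for comparison, with 3 treated and 3 untreated libraries each: Smad3fl, which has the floxed Smad3 alleles without Cre, and MyS2KO, which has floxed Smad2 alleles with LyzM-Cre. The remaining 6 libraries are of Smad2fl cells, with floxed Smad2 alleles and no Cre.

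By their labels, all groups share their origin and culture. Marrow came from the tibias of C57BL/6 mice aged 2 to 3 months, was expanded with medium that supplies interleukin-3 and with CSF-1, a growth factor of macrophages, and the resulting macrophages were kept without serum for about 16 hours before treatment. Polyadenylated RNA was sequenced. The labels do not say whether the libraries of a group came from separate mice. The p-values therefore measure only the spread between libraries, which may not be a spread between mice. The labels speak of 8 cDNA libraries where 24 samples are deposited, and whether RNA was pooled is not given.

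TGF-β1 binds the type II receptor TGFBR2, which recruits and activates the type I receptor TGFBR1. That kinase phosphorylates SMAD2 and SMAD3, which join SMAD4 and regulate genes in the nucleus. SMAD3 binds DNA directly through its MH1 domain, whereas the common form of SMAD2 does not. In some cells TGF-β also activates SMAD1 and SMAD5, the SMADs of the BMP branch. Macrophages meet TGF-β in wounds and infarcts, where it is known to restrain inflammatory genes and to favour matrix and growth factor production.

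Smad3 (ENSMUSG00000032402, chr9:63646767-63757994, minus strand, mm10) was measured first because it is the targeted gene. It stood at 289, 249 and 265 CPM (reads per 1e6 of the scaled library total) in treated MyS3KO libraries, against 209, 181 and 161 CPM in untreated MyS3KO libraries. The 3 treated libraries lay above the 3 untreated ones, and Smad3 RNA rose with TGF-β1 (log2 change 0.54 ± 0.13, adjusted p = 0.00932, edgeR quasi-likelihood test). The rise was not called with no filter on low counts, in the 6 MyS3KO libraries fitted alone, without untreated library 3, or without both libraries numbered 2 or both numbered 3. In Smad3fl libraries it stood at 404, 441 and 399 CPM with TGF-β1, against 443, 459.7 and 369 CPM without. MyS3KO minus Smad3fl was -0.63 ± 0.13 with TGF-β1 and -1.21 ± 0.14 without it, both called (adjusted p = 0.00208 and 6.9e-06), as were 28.2% and 17.7% of all tested genes. Smad3 RNA was therefore lower in MyS3KO than in Smad3fl but far from absent. It was lower still in the Smad2 line, where Smad3 is not targeted: 48.7, 46.6 and 52.8 CPM in treated and 34.0, 26.4 and 33.3 CPM in untreated MyS2KO libraries, and 54.2, 66.6 and 50.6 CPM in treated and 40.6, 45.8 and 38.0 CPM in untreated Smad2fl libraries. Reads were counted per gene, so loss of the floxed exons could not be read from them. The submitters' design text says that qPCR and western blots documented the knockout, which are not used here. Smad2, the other receptor-activated SMAD of this branch, was at 32.3, 35.3 and 39.0 CPM in treated and 40.6, 42.9 and 43.6 CPM in untreated MyS3KO libraries (log2 change -0.25 ± 0.12, adjusted p = 0.211). Smad4, their shared partner, had a log2 change of 0.10 ± 0.10 (adjusted p = 0.633).

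Depth was 18.2 to 21.5 M counted reads (M, 1e6) in treated and 18.4 to 20.4 M in untreated MyS3KO libraries. The libraries numbered 1 stood apart in both groups. The interferon-inducible gene Ifi202b was at 0.490 CPM in treated library 1 and 1.25 CPM in untreated library 1, against 68.8 to 103.8 CPM in the other 4 libraries. Lyz2 was at 4516, 1420.0 and 1919.5 CPM in treated and 4389, 2022 and 2268 CPM in untreated MyS3KO libraries, highest in number 1 of each. In Smad3fl libraries Ifi202b was at 204 to 275 CPM treated and 80.6 to 261 CPM untreated, and in the 12 libraries of the Smad2 line it was at 0.455 CPM or less. What sets the libraries numbered 1 apart is not labelled. Several counts are therefore also given without both libraries numbered 1. Macrophage markers were high in all 6 libraries: the F4/80 gene Adgre1 was at 9733 to 12686 CPM in treated and 10887 to 11902 CPM in untreated libraries. Markers of other cells varied. The T cell gene Cd3e, the neutrophil gene Ly6g and the basophil gene Mcpt8 had 0 reads in all 6 libraries. The 9 neutrophil and granulocyte precursor markers summed to 15.9 to 19.1 CPM in treated and 13.7 to 23 CPM in untreated libraries. The 6 T and NK cell markers summed to 0.306 to 0.347 CPM in treated and 0.477 to 0.701 CPM in untreated libraries. Megakaryocyte markers were higher, at 143 to 173 CPM in treated and 132 to 167 CPM in untreated libraries, mostly Pf4. Osteoclast markers summed to 81.5 to 90.8 CPM in treated and 62.6 to 77.8 CPM in untreated libraries, mostly Ctsk and Nfatc1. In the same order, endothelial markers summed to 38.7 to 82.7 and 63.4 to 116 CPM, mostly Kdr. Dendritic cell markers summed to 14.1 to 37.8 and 16.9 to 35.6 CPM, mostly Xcr1. Cldn5 of the endothelial list and Cd209a of the dendritic list had 0 reads in all 6 libraries.

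TGF-β1 changed 1428 of 14261 tested genes in MyS3KO macrophages (10%, adjusted p under 0.05): 933 rose (6.54%) and 495 fell (3.47%). The rises were also the larger changes, since 506 genes at least doubled (3.55%) and 211 were at least halved (1.48%). Leading genes among the rises were those of SMAD feedback, growth factors and Tgfbi, which encodes a secreted matrix protein. Among the falls they were the iron exporter Slc40a1, the kinase gene Sik1 and the cytokine gene Il6. Of the 933 raised genes, 912 had all 3 treated libraries above all 3 untreated ones, an ordering seen in 14% of all tested genes. The opposite ordering, seen in 10.8%, held for 475 of the 495 lowered genes. The calls were made from the same libraries, so these orderings are no separate support for them. Values in brackets after a gene name below are log2 changes, TGF-β1 minus untreated, with the standard error after ±. In bulk RNA, fewer cells of a type and less RNA per cell cannot be told apart. Without both libraries numbered 1 the call held for 621 of the raised genes (66.6%) and 301 of the lowered genes (60.8%), and the 933 and 495 genes all kept their sign. The remaining libraries had also entered the calls, so the kept signs are no independent check. With no filter on low counts 818 genes rose and 898 fell, so the excess of rises over falls does not hold for that setting.

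**Figure D1:**
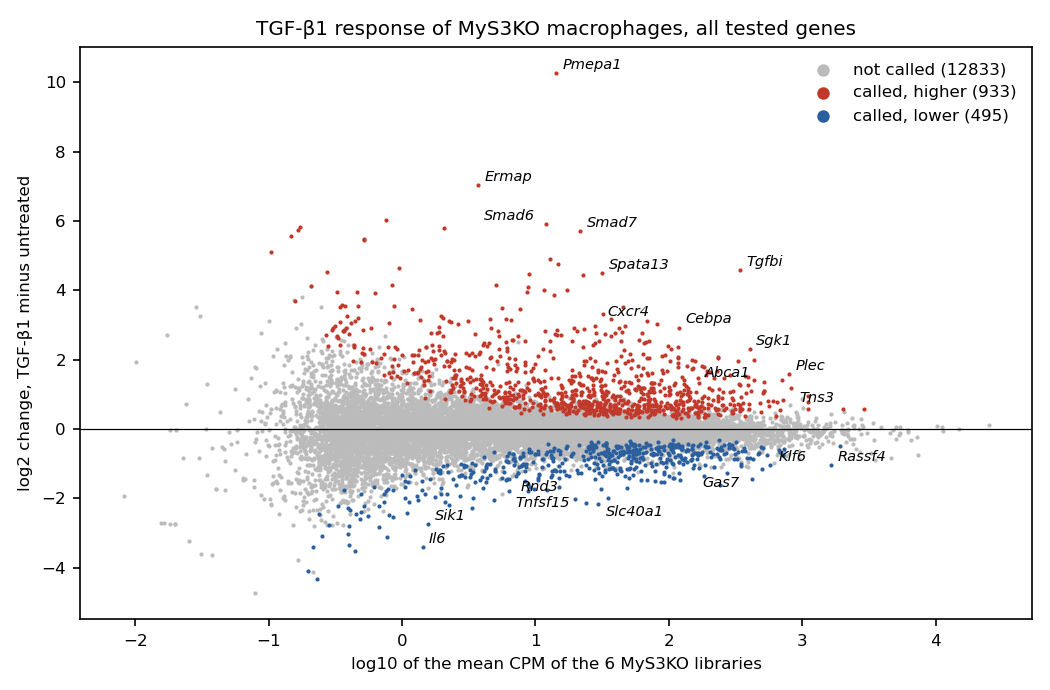
Each point is 1 of the 14261 tested genes in MyS3KO macrophages: log10 of the mean CPM over the 6 libraries (horizontal) against the fitted log2 change, TGF-β1 minus untreated (vertical). The 933 called rises (red) reach higher than the 495 called falls (blue) reach low, with Pmepa1, Ermap, Smad6 and Smad7 at the top and Sik1 and Il6 among the lowest of the named genes.

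Genes that damp TGF-β signalling rose together, and theirs was the largest share called among the pathway and function lists with 8 or more tested members, lists of cell type markers aside. Of 16 tested members of the list of SMAD feedback and receptor control genes, 11 rose, 0 fell and 5 were not called by the edgeR test (11 at unadjusted p under 0.05, none of them lower; DESeq2 gave the same counts). The median log2 change of the list was 0.99, against 0.00 over all tested genes. Smad7, the inhibitory SMAD that blocks the type I receptor and recruits ubiquitin ligases to it, was at 45.4, 44.4 and 37.9 CPM in treated libraries, against 0.953, 0.739 and 0.748 CPM in untreated libraries. That is a log2 change of 5.71 ± 0.23 (adjusted p = 2.59e-13), and no treated library came near an untreated one. Smad6 (chr9:63953076-64022059, minus strand), the inhibitory SMAD best known for the BMP branch, was at 21.0, 26.6 and 23.8 CPM in treated and 0.417, 0.246 and 0.514 CPM in untreated libraries (log2 change 5.90 ± 0.31). Both inhibitory SMADs thus had every treated library far above every untreated one. Pmepa1 (chr2:173224458-173276533, minus strand), a membrane protein that sequesters receptor-activated SMADs, was at 26.5, 27.6 and 31.6 CPM in treated and 0.0596, 0 and 0 CPM in untreated libraries. It had 1731 reads over the treated libraries and 1 read over the untreated ones, a ratio of 1690 with an exact 95% interval of 302 to 66700 that covers counting error only.

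Further members act on the receptors or on SMAD transcription. Spsb1, which marks the type II receptor for degradation, was at 23.6, 22.1 and 28.9 CPM in treated and 1.25, 0.838 and 0.468 CPM in untreated libraries (log2 change 4.89 ± 0.44). Ski and Skil, co-repressors that bind SMAD complexes, changed by 1.76 ± 0.12 and 0.91 ± 0.23, and the co-repressor Tgif1 by 1.06 ± 0.16. The ubiquitin ligases Smurf2 and Smurf1 rose less, by 0.76 ± 0.12 and 0.54 ± 0.13. Ldlrad4, which binds receptor-activated SMADs, changed by 1.97 ± 0.38 from a low untreated level. Tmeff1 had 251 treated and 4 untreated reads. Among the 5 uncalled members, the pseudoreceptor Bambi had a log2 change of 0.68 and the deubiquitinase Usp15 one of -0.48.

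**Figure D2:**
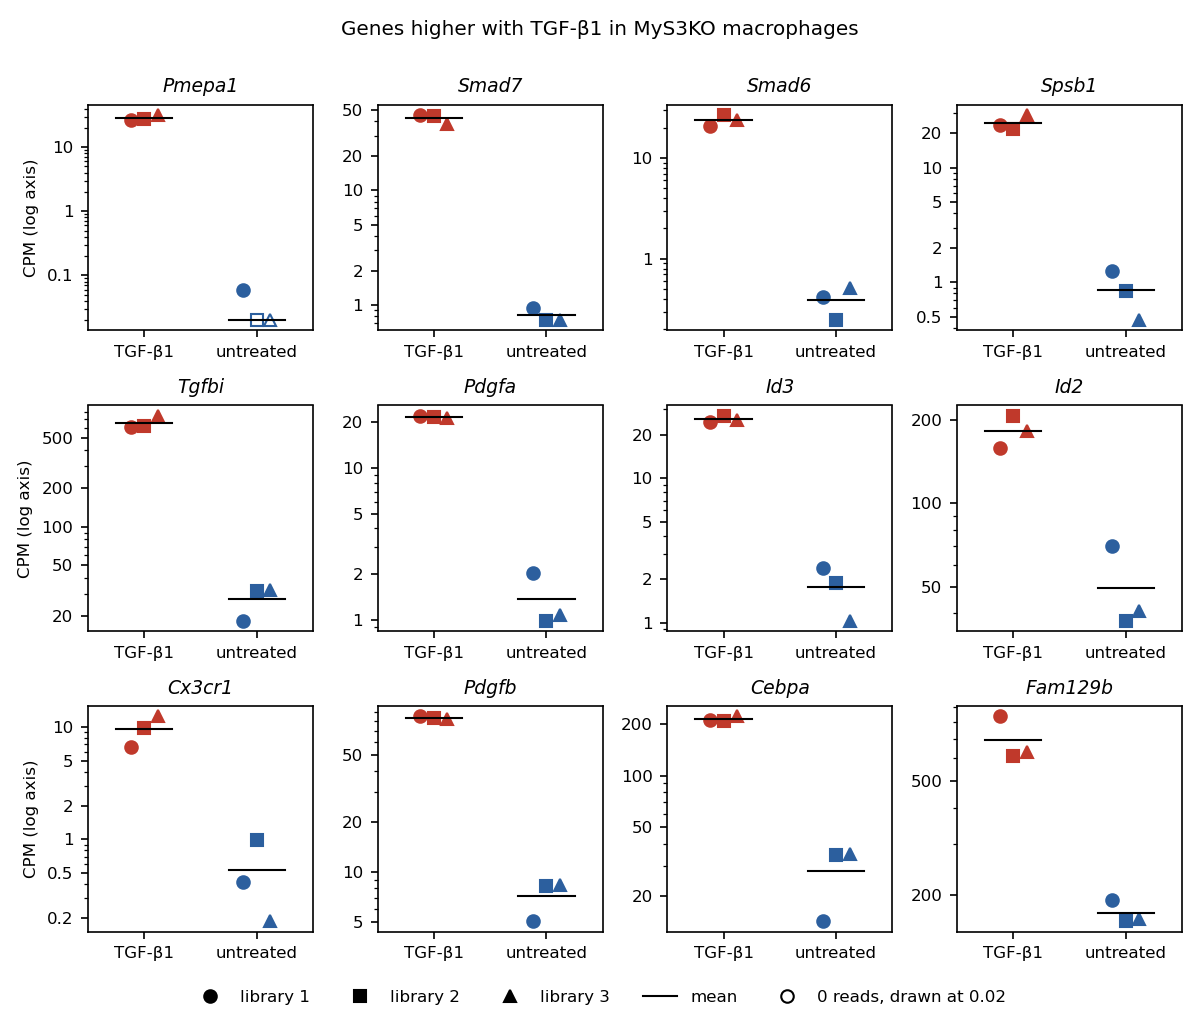
CPM (log axis) of 12 raised genes in each library, treated MyS3KO on the left (red) and untreated MyS3KO on the right (blue), with circles, squares and triangles for libraries 1, 2 and 3 and a line at the mean of 3. In every panel the 3 treated libraries lie above the 3 untreated ones, and Pmepa1 has 2 untreated libraries with 0 reads, drawn at 0.02.

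Promoter sequence was looked at for members that moved together. RefSeq promoters on GRCm38.p6 (250 bases before to 50 after the start) were matched to 9925 of the 14261 tested genes, 1090 of them called. The SMAD palindrome GTCTAGAC, made of SMAD-binding boxes on opposite strands, was in 0.543% of the promoters of raised genes, 0% of those of lowered genes and 0.212% of all tested ones. The half-site CAGAC, whose reverse complement is GTCTG, was in 51.9%, 48.6% and 47.5% of the same sets. The GC-rich SMAD motif GGCGCC was in 24.6%, 21.8% and 20.3%. The AP-1 motif TGANTCA was in 5.84%, 5.65% and 5.3%, and the CRE motif TGACGTCA in 2.45%, 3.39% and 3.21%. All motifs were searched on both strands. These shares describe the letters in a short window, in which the palindrome as searched does not contain the half-site, and a match is not a binding site. Among the 11 matched promoters of the feedback list, 1 held the palindrome, that of Smad6, where it begins at -4 from the start. The promoters of 3 raised genes with different roles and of 1 lowered gene are shown with every match in capitals:
Smad6: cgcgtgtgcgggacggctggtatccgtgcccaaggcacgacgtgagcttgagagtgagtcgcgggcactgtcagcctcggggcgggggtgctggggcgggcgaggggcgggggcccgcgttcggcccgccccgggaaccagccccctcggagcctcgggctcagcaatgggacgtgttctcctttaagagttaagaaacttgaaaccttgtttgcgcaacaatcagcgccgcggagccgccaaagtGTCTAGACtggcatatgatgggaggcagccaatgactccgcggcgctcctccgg
Tgfbi: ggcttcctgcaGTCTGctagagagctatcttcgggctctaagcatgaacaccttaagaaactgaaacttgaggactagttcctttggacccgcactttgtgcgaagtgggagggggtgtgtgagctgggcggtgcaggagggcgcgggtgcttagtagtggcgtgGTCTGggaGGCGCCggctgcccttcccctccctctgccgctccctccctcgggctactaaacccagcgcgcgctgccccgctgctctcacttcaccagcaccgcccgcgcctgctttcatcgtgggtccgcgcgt
Id3: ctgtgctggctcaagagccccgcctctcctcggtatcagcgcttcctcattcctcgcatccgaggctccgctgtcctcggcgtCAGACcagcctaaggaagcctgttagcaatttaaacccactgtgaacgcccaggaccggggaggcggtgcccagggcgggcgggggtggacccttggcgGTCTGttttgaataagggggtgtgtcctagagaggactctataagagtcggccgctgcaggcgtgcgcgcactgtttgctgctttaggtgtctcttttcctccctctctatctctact
Il6: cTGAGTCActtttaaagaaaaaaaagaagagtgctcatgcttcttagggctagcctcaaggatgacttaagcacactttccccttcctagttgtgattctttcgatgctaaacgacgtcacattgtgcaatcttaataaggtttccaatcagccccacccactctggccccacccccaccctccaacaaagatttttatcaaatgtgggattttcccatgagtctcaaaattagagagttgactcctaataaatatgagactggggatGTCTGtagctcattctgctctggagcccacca
The windows are chr9:64022010-64022309 on the minus strand for Smad6, and on the plus strand chr13:56609336-56609635 for Tgfbi, chr4:136143572-136143871 for Id3 and chr5:30012864-30013163 for Il6 (the RefSeq start lies 63 bases from the files' gene start for Tgfbi and 325 for Id3, and at it for the others). Tgfbi held 2 half-sites and 1 GC-rich motif, Id3 held 2 half-sites, and Il6 held 1 half-site and 1 AP-1 motif.

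Of the 10 tested receptors for TGF-β, activin and BMP, 1 rose and 0 fell (3 higher and 0 lower at unadjusted p under 0.05; DESeq2 also called 1). That one was the kinase that phosphorylates SMAD2 and SMAD3, Tgfbr1 (chr4:47353222-47414931, plus strand), at 72.4, 142 and 119 CPM in treated and 24.9, 27.6 and 28.3 CPM in untreated libraries (log2 change 2.04 ± 0.28, adjusted p = 2.24e-05). Treated library 1 was lowest of its group, and the groups did not overlap. The ligand-binding partner Tgfbr2 had a log2 change of 0.08, not called. Of 9 tested SMADs and SMAD partners 4 rose and 0 fell (2 lower at unadjusted p under 0.05; DESeq2 0 lower): the Runt factors Runx3 (1.80 ± 0.42) and Runx2 (1.14 ± 0.34), the BMP-branch Smad5 (0.67 ± 0.14) and Smad3 itself. With the 6 MyS3KO libraries fitted alone the list had 1 rise, and without untreated library 3 it had 2. Of 14 tested ligands and genes of latency and activation, 1 rose and 2 fell. Furin, the protease that cuts the TGF-β precursor, was at 306, 264 and 282 CPM in treated and 77.8, 82.5 and 84.8 CPM in untreated libraries (log2 change 1.80 ± 0.16). Nrros, which tethers latent TGF-β on myeloid cells, fell to 217, 175 and 192 CPM in treated libraries, against 305, 316 and 339 CPM in untreated libraries (log2 change -0.72 ± 0.20). Bmp2, a BMP ligand, changed by -1.87 ± 0.48. Tgfb1 itself had a log2 change of -0.08, was not called and had the opposite sign without library 2 of both groups.

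The 4 tested of 10 listed targets of BMP-activated SMADs rose, with a median log2 change of 3.34 (the other members were too low to test). Most of them are inhibitors of differentiation, helix-loop-helix proteins that block basic helix-loop-helix factors. Id3 (ENSMUSG00000007872, chr4:136143497-136145755, plus strand) was at 24.6, 27.1 and 25.2 CPM in treated and 2.38, 1.87 and 1.03 CPM in untreated libraries (log2 change 3.88 ± 0.37, adjusted p = 8.98e-08). Treated libraries were within a narrow range and far above all untreated ones. Id1 was at 2.27, 3.67 and 4.00 CPM in treated and 0.596, 0.592 and 0.234 CPM in untreated libraries (log2 change 2.81 ± 0.54). Id2 was at 158, 208 and 183 CPM in treated and 70.1, 37.6 and 40.7 CPM in untreated libraries (log2 change 1.89 ± 0.24), with untreated library 1 the highest untreated one. The fourth, Hey1, a repressor also known from the Notch pathway, had 59 treated reads and 1 untreated read, a ratio of 57.5 (exact 95% interval 9.93 to 2310).

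Among 14 tested classical TGF-β targets, 7 rose and 1 fell. Tgfbi (chr13:56609523-56639562, plus strand), a secreted matrix protein, was at 606, 620.3 and 742 CPM in treated and 18.4, 31.2 and 31.8 CPM in untreated libraries (log2 change 4.59 ± 0.25, adjusted p = 2.65e-11). The platelet-derived growth factor genes rose with little spread: Pdgfb was at 85.0, 82.7 and 81.9 CPM in treated and 5.06, 8.23 and 8.37 CPM in untreated libraries (log2 change 3.52 ± 0.32). Pdgfa was at 22.1, 21.8 and 21.2 CPM in treated and 2.03, 0.986 and 1.08 CPM in untreated libraries (log2 change 4.01 ± 0.35). The Notch ligand Jag1, the integrin subunit Itgb5 and the angiogenic factor Vegfa changed by 2.53 ± 0.33, 2.04 ± 0.24 and 1.41 ± 0.20. The cell cycle inhibitor Cdkn2b, which TGF-β raises in epithelial cells, fell here, at 3.06, 3.22 and 4.05 CPM in treated and 5.72, 9.56 and 9.17 CPM in untreated libraries (log2 change -1.24 ± 0.24).

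Growth factors and matrix enzymes extended this pattern. Of 17 tested growth factors 5 rose and 1 fell: besides both PDGF genes and Vegfa, the angiopoietin-like factor Angptl2 (4.01 ± 0.29) and the interleukin-6 family cytokine Osm (2.49 ± 0.32) rose, and Igf1, insulin-like growth factor 1, fell (-0.54 ± 0.15). Of 20 matrix proteases and inhibitors 5 rose and 1 fell, and 3 rose without the libraries numbered 1 or without either library numbered 3. The urokinase gene Plau was at 46.4, 43.4 and 45.8 CPM in treated and 20.2, 10.3 and 11.5 CPM in untreated libraries (log2 change 1.70 ± 0.24), and its receptor gene Plaur changed by 1.93 ± 0.32, so protease and receptor rose together. The aggrecan-cleaving protease Adamts4 fell (-1.21 ± 0.28). Of 12 matrix genes 2 rose, Tgfbi and the proteoglycan gene Cspg4 (94 treated reads and 1 untreated read), and Vcan, the versican gene, fell (-0.93 ± 0.28). Neither Igf1 nor Vcan was called without the libraries numbered 1. Of 11 contractile genes, the actin cross-linker Actn1 (1.89 ± 0.34) and the lamin gene Lmna (1.32 ± 0.35) rose and 0 fell (0 lower at unadjusted p under 0.05; 0 by DESeq2), with 1 rise without the libraries numbered 1.

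Microglia, the macrophages of the brain, need TGF-β to keep their identity, and 5 of 9 tested genes of that programme rose with 0 falling (0 lower at unadjusted p under 0.05; DESeq2 called 6 higher and 0 lower). Cx3cr1 (chr9:119901616-120069879, minus strand), the fractalkine receptor, was at 6.56, 9.86 and 12.4 CPM in treated and 0.417, 0.986 and 0.187 CPM in untreated libraries (log2 change 4.17 ± 0.48). Olfml3, a secreted olfactomedin-like protein, was at 18.7, 14.8 and 16.4 CPM in treated and 1.61, 0.641 and 0.701 CPM in untreated libraries (log2 change 4.11 ± 0.36). Spata13, a guanine nucleotide exchange factor for small GTPases, was at 57.4, 58.6 and 66.0 CPM in treated and 1.73, 2.81 and 3.46 CPM in untreated libraries (log2 change 4.49 ± 0.28). All 3 genes were low in untreated cells. Gpr84, a receptor for medium-chain fatty acids, changed by 2.28 ± 0.22. The purinergic receptor P2ry12, a standard microglia marker, had an uncalled log2 change of -0.24.

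Transcription factors of the macrophage lineage moved in both directions: of 15 tested, 4 rose and 4 fell. Cebpa (chr7:35119293-35121928, plus strand), a factor of myeloid differentiation, was at 211, 206 and 220.5 CPM in treated and 14.2, 34.5 and 35.1 CPM in untreated libraries (log2 change 2.92 ± 0.29). Cebpb, which acts in inflammatory and repair genes, was at 532, 317 and 293 CPM in treated and 178, 117 and 116 CPM in untreated libraries (log2 change 1.48 ± 0.29). Cebpd, a relative of both, fell to 73.5, 56.4 and 47.8 CPM in treated libraries, against 153, 181 and 139 CPM in untreated libraries (log2 change -1.41 ± 0.29). The 3 C/EBP genes thus did not move as one. Maf, a factor of macrophage maturation, fell (-0.75 ± 0.14). The circadian repressor Bhlhe40 rose (2.83 ± 0.23), and the nuclear receptor Pparg (-1.38 ± 0.19) and Tfec (-1.21 ± 0.22) fell. Of 21 immediate early factors 5 rose and 2 fell. Fos was at 359, 407 and 369 CPM in treated and 80.6, 107 and 84.5 CPM in untreated libraries (log2 change 2.06 ± 0.20), whereas its AP-1 partner Jun fell (-0.69 ± 0.20). Nr4a1, an orphan nuclear receptor, was at 6.62, 6.00 and 7.75 CPM in treated and 1.91, 1.04 and 0.888 CPM in untreated libraries (log2 change 2.43 ± 0.29). Klf10, known as a TGF-β-inducible factor, rose (1.5 ± 0.23) and Klf6 fell (-1.04 ± 0.22). In the list of salt-inducible kinases and their CREB circuit, 1 of 12 members rose, the phosphodiesterase gene Pde3b (0.99 ± 0.26), and 1 fell. Sik1, which TGF-β induces in other cell types, fell to 0.613, 0.297 and 0.341 CPM in treated libraries, against 1.79, 3.50 and 2.90 CPM in untreated libraries (log2 change -2.74 ± 0.39, adjusted p = 2.59e-05).

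Few cytokine genes were called. Over all tested genes 6.54% rose and 3.47% fell, and single calls in lists this small are not read as a pattern. Of 10 tested proinflammatory cytokines and enzymes 1 rose, Osm, and 1 fell, and the median log2 change was -0.63. Il6 (chr5:30013114-30019981, plus strand) was at 0.429, 0.149 and 0.170 CPM in treated and 5.90, 0.739 and 1.17 CPM in untreated libraries (log2 change -3.39 ± 0.93, adjusted p = 0.0198). Its fitted fall is large because untreated library 1 was far above untreated libraries 2 and 3, although those also lay above every treated library. The fall was called in 11 of 19 alternative settings, and not by limma-voom, in the 6 MyS3KO libraries fitted alone, without treated library 2, treated library 3 or untreated library 1, in the 12 libraries of the Smad3 line, or without both libraries numbered 1 or both numbered 3. The interleukin-1β gene Il1b had an uncalled log2 change of -1.17 and was called lower in 2 of 19 alternative settings. Of 12 genes of interleukin-10 and resolution 1 rose and 1 fell. Il10, the anti-inflammatory cytokine, was at 12.4, 6.00 and 3.53 CPM in treated and 29.0, 22.0 and 18.0 CPM in untreated libraries (log2 change -1.67 ± 0.40), and its receptor subunit gene Il10rb rose (0.46 ± 0.11). Among 20 chemokines 3 rose and 0 fell (4 lower at unadjusted p under 0.05; DESeq2 0 lower, 7 lower with no filter on low counts and 3 without treated library 1): Cxcl16 (1.27 ± 0.16), Cxcl14 (1.83 ± 0.33) and Ccl22, which had 29 treated and 5 untreated reads and was called in 6 of 17 alternative settings. The median of the list was -0.46. The inflammatory chemokine gene Ccl3 had an uncalled change of -1.10, and it was called lower in 6 of 19 alternative settings.

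Surface receptors of inflammation and movement changed in both directions. Of 15 chemokine and migration receptors 4 rose and 2 fell. Cxcr4, the receptor for CXCL12, was at 118, 159 and 160.5 CPM in treated and 14.3, 20.3 and 19.1 CPM in untreated libraries (log2 change 3.03 ± 0.18, adjusted p = 5.82e-11). S1pr1, which guides cells along sphingosine-1-phosphate, and P2ry6, a receptor for UDP, changed by 2.05 ± 0.21 and 1.07 ± 0.17. The formyl peptide receptor genes fell together, Fpr1 with a log2 change of -1.04 ± 0.18 and Fpr2 with one of -0.57 ± 0.13. Of 19 TNF superfamily ligands and receptors 3 rose and 3 fell, with 1 rise without the libraries numbered 1 and 7 falls without treated library 1. The receptors Tnfrsf12a (1.67 ± 0.29) and Tnfrsf1b (0.79 ± 0.18) were among the rises, and the ligand Tnfsf15 fell to 14.3, 7.24 and 5.75 CPM in treated libraries, against 58.9, 28.1 and 30.6 CPM in untreated libraries (log2 change -2.12 ± 0.40). Of 17 pattern recognition receptors 1 rose and 3 fell, and 10 fell with no filter on low counts, 6 without treated library 1 and 1 without untreated library 1. Tlr2, the receptor for bacterial lipopeptides, was at 707, 523 and 503 CPM in treated and 219, 202 and 193 CPM in untreated libraries (log2 change 1.5 ± 0.17). Its partners Tlr1 (-0.54 ± 0.13) and Tlr6 (-0.52 ± 0.14) fell. Tlr4, the endotoxin receptor, fell to 51.3, 55.7 and 53.9 CPM in treated libraries, against 134, 90.4 and 98.1 CPM in untreated libraries (log2 change -1.0 ± 0.22).

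None of 22 interferon-induced genes was called by the edgeR test (1 higher and 3 lower at unadjusted p under 0.05), and DESeq2 and limma-voom called 0 as well. The median log2 change of that list was -0.43. None of 16 genes of the Ifi200 and Trim clusters was called either (7 lower at unadjusted p under 0.05; DESeq2 called 1 and limma-voom 0), with a median of -0.60. The second list holds Ifi202b, which separates library 1 from libraries 2 and 3. With no filter on low counts 9 interferon-induced genes and 10 cluster genes fell, and without treated library 1 5 and 3 fell. Of 12 genes of MHC class II and costimulation 0 were called (1 lower at unadjusted p under 0.05; DESeq2 and limma-voom 0). The death caspase list of 13 genes had 1 fall, Casp12 (-2.49 ± 0.66), and 0 rises (0 higher at unadjusted p under 0.05; 0 by DESeq2).

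Genes for clearing dying cells and for adhesion rose more often than they fell, as did all tested genes (6.54% raised and 3.47% lowered). Of 20 receptors and bridging molecules for dying cells 5 rose and 0 fell (0 lower at unadjusted p under 0.05; 0 by DESeq2). The αvβ5 integrin, which takes up dying cells through a bridging protein, had both subunits raised: Itgav was at 253, 349 and 283 CPM in treated and 118, 80.9 and 78.7 CPM in untreated libraries (log2 change 1.67 ± 0.19), and Itgb5 is given above. The large endocytic receptor Lrp1 was at 3459, 3620.4 and 3349 CPM in treated and 2195, 2411 and 2358 CPM in untreated libraries (log2 change 0.58 ± 0.11). Stab1, a scavenger receptor, and Elmo1, an engulfment adaptor, changed by 0.57 ± 0.15 and 0.48 ± 0.12. The list had 3 rises without treated library 2, treated library 3 or untreated library 2. The efferocytosis kinase gene Mertk (-0.17) was not called. Of 11 scavenger receptors 3 rose and 1 fell, the oxidised LDL receptor Olr1 with 103 treated and 8 untreated reads among the rises and the mannose receptor Mrc1 (-0.67 ± 0.16) as the fall, which was not called without the libraries numbered 1. Of 12 genes of alternative activation 2 rose, Ccl22 and the transglutaminase gene Tgm2 (2.31 ± 0.23), and Mrc1 fell. Of 21 integrins and adhesion genes 6 rose and 2 fell. The fibronectin receptor subunit Itga5 (1.54 ± 0.22) and the laminin receptor subunit Itga6 (1.18 ± 0.14) rose, whereas Itga4, a subunit that binds VCAM-1, was at 136, 151 and 132 CPM in treated and 354, 273 and 263 CPM in untreated libraries (log2 change -1.08 ± 0.22). The focal adhesion gene Vcl also fell (-0.93 ± 0.13). Of 20 small GTPases and actin regulators 3 rose and 1 fell. Rhob rose (1.42 ± 0.26), and Rnd3, a small GTPase that loosens actin stress fibres, fell to 7.78, 9.02 and 6.77 CPM in treated libraries, against 38.8, 27.8 and 28.5 CPM in untreated libraries (log2 change -2.01 ± 0.20, adjusted p = 1.91e-07).

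**Figure D3:**
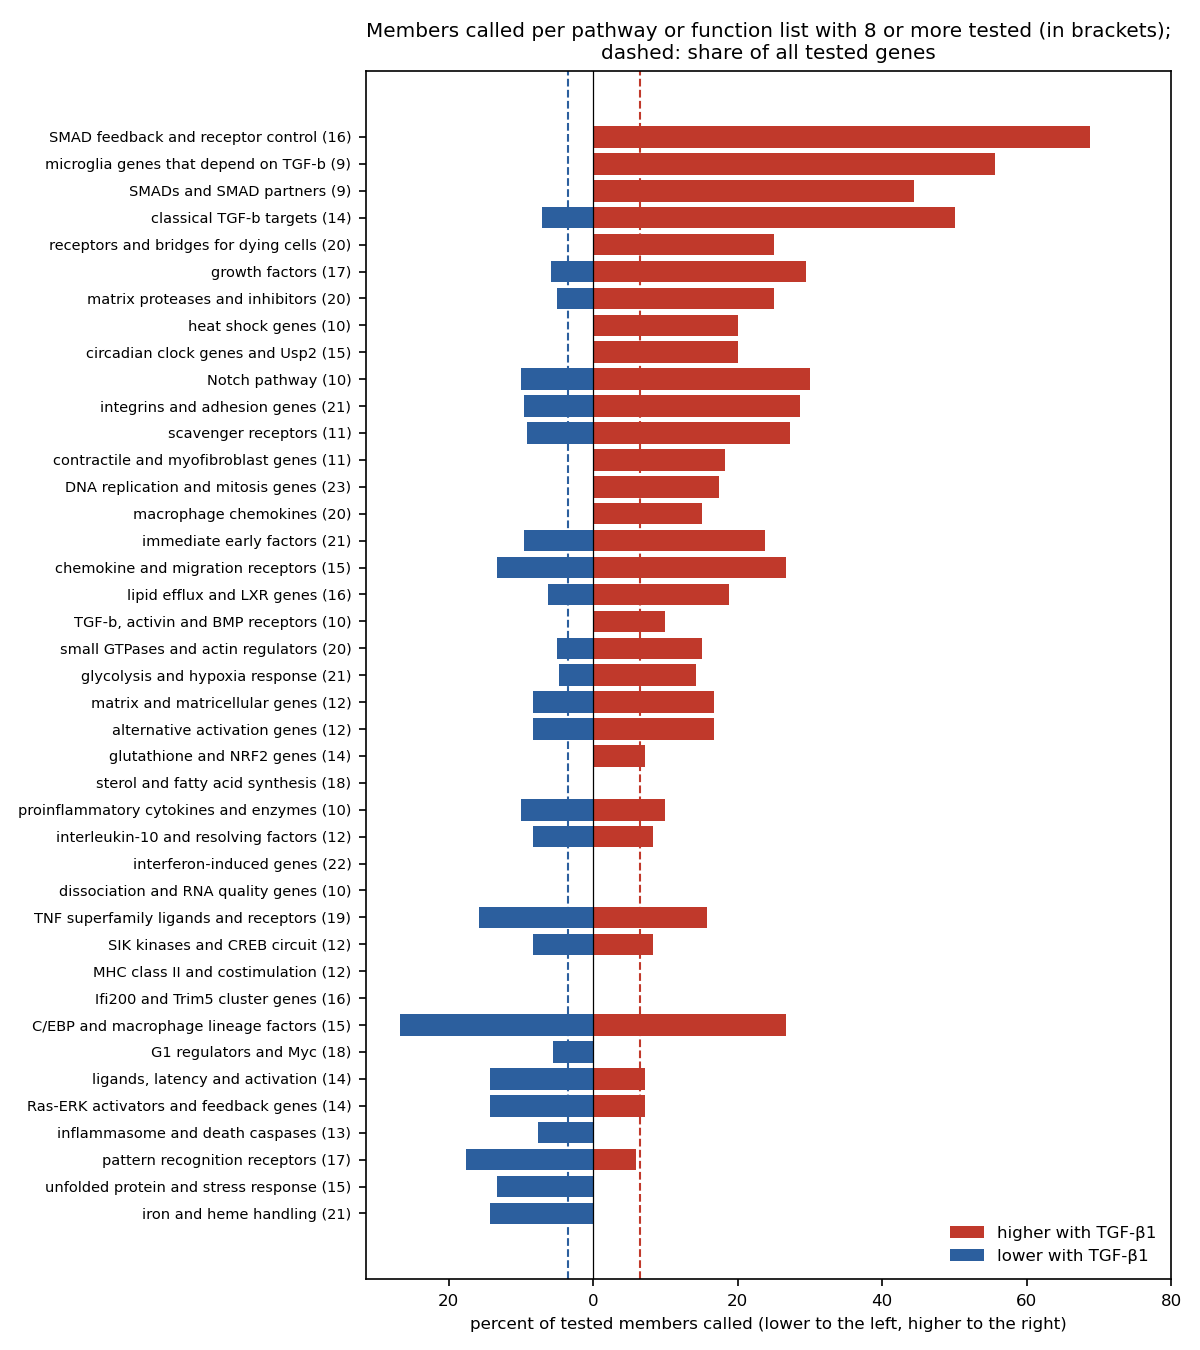
Bars give the percent of tested members called higher (red, to the right) and lower (blue, to the left) with TGF-β1 in MyS3KO macrophages, for each pathway or function list (cell type marker lists left out) with 8 or more tested members, whose number stands in brackets, in order of the share raised minus the share lowered. Dashed lines mark the shares over all tested genes, 6.54% higher and 3.47% lower: SMAD feedback genes stand at the top with 11 of 16 raised, and iron and heme genes at the bottom with 3 of 21 lowered.

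Of 21 genes of iron and heme handling 0 rose and 3 fell (4 higher at unadjusted p under 0.05; 0 higher by DESeq2 and 1 by limma-voom). Slc40a1 (chr1:45908068-45926523, minus strand), ferroportin, the iron exporter of macrophages, was at 12.1, 10.1 and 10.0 CPM in treated and 47.6, 41.5 and 54.1 CPM in untreated libraries (log2 change -2.15 ± 0.29, adjusted p = 1.68e-05). Spic, the factor of iron-recycling macrophages, and Ncoa4, the receptor for ferritin breakdown, changed by -1.62 ± 0.40 and -0.72 ± 0.16. In the 6 MyS3KO libraries fitted alone, 1 of the iron genes fell. Of 16 genes of lipid efflux 3 rose and 1 fell, with both cholesterol exporters among the rises. Abca1 was at 685, 816 and 719.8 CPM in treated and 291, 279 and 289 CPM in untreated libraries (log2 change 1.37 ± 0.21), and Abcg1 changed by 1.09 ± 0.17. Sterol and fatty acid synthesis had 0 calls among 18 genes (2 lower at unadjusted p under 0.05; DESeq2 and limma-voom 0). Of 21 glycolysis and hypoxia genes 3 rose and 1 fell: hexokinase 2, Hk2, was at 510.2, 499.6 and 521 CPM in treated and 268, 245 and 236 CPM in untreated libraries (log2 change 1.03 ± 0.12), and the hypoxia-responsive Ndrg1 fell (-1.20 ± 0.22). Without treated library 3 or untreated library 1 the list had 1 rise.

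Stress, clock and growth lists held scattered changes. The glutathione synthesis gene Gclm was the 1 rise among 14 genes of glutathione and NRF2 (1.60 ± 0.21), and the chaperone genes Bag3 (1.29 ± 0.15) and Hsph1 (1.11 ± 0.23) were the 2 rises among 10 heat shock genes. Of 15 genes of the unfolded protein response 2 fell, Atf6 (-0.84 ± 0.16) and Herpud1 (-0.51 ± 0.16), both factors of protein folding stress in the endoplasmic reticulum. Usp2, a deubiquitinase with circadian rhythm, was at 14.4, 17.2 and 20.2 CPM in treated and 0.775, 0.246 and 1.31 CPM in untreated libraries (log2 change 4.46 ± 0.37), the largest of 3 rises among 15 clock genes. Of 23 genes of DNA replication and mitosis 4 rose, all subunits of the replicative helicase: Mcm6 was at 65.2, 69.2 and 67.4 CPM in treated and 25.2, 28.7 and 25.3 CPM in untreated libraries (log2 change 1.35 ± 0.15), and Mcm2, Mcm3 and Mcm4 changed by 1.55 ± 0.34, 1.20 ± 0.26 and 1.01 ± 0.30. The proliferation marker Mki67 had an uncalled change of -0.28. Of 18 regulators of the G1 phase, Cdkn2b fell and the other 17 were not called. Myc was among them (-0.51, called lower in 1 of 19 alternative settings). In the Ras and ERK list, 1 of 14 genes rose and 2 fell: Spred1, an inhibitor of that pathway, changed by -0.88 ± 0.15. Of 7 Wnt receptors and regulators, the receptor ligase gene Znrf3 rose (3.16 ± 0.44) and the receptor gene Fzd1 (-2.43 ± 0.58) and Tcf7l2 (-0.71 ± 0.17) fell. Of 10 Notch pathway genes 3 rose and 1 fell: Lfng, which modifies Notch receptors, rose (2.11 ± 0.28) with Jag1 and Hey1, and the receptor Notch2 fell (-0.86 ± 0.14). None of 10 transcripts read as signs of RNA quality was called (0 higher and 2 lower at unadjusted p under 0.05; DESeq2 and limma-voom 0), with a median of -0.33. All had negative log2 changes, from -0.53 to -0.21, and 4 had all treated libraries below all untreated ones, against 10.8% of all tested genes. They summed to 7210 to 7610 CPM in treated and 8080 to 9960 CPM in untreated libraries.

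Several large changes lay outside these lists. Ermap, an erythroid membrane protein of the butyrophilin family, had 444 treated and 3 untreated reads, a ratio of 144 (exact 95% interval 49 to 702). Its values were 7.78, 7.34 and 7.20 CPM in treated and 0, 0 and 0.140 CPM in untreated libraries. Chst3 (chr10:60181532-60219260, minus strand), a chondroitin sulfotransferase, was at 15.9, 16.3 and 16.5 CPM in treated and 1.07, 1.08 and 0.982 CPM in untreated libraries (log2 change 3.95 ± 0.22). Pald1, a paladin phosphatase gene, spread more, with 16.1, 27.4 and 42.2 CPM in treated and 0.477, 0.887 and 1.73 CPM in untreated libraries (log2 change 4.75 ± 0.50). Among abundant genes that at least doubled, Fam129b was at 838, 608 and 627 CPM in treated and 192, 162 and 164 CPM in untreated libraries (log2 change 2.00 ± 0.18). Sgk1, a kinase that responds to serum and glucocorticoids, was at 726, 659 and 639.5 CPM in treated and 161, 123 and 127 CPM in untreated libraries (log2 change 2.30 ± 0.15). Plec, a cytoskeletal linker, and Piezo1, a mechanically gated ion channel, changed by 1.58 ± 0.15 and 1.42 ± 0.14. The lipid phosphatase gene Inpp5d (SHIP1) and the adhesion adaptor Tns3 had log2 changes of 1.11 ± 0.11 and 1.19 ± 0.15.

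The abundant falls included signalling and scaffold genes. Rassf4, a Ras-association protein, was at 1159, 1019 and 1069 CPM in treated and 2140.3, 2301 and 2232 CPM in untreated libraries (log2 change -1.04 ± 0.13). Gas7, an actin-binding growth arrest protein, was at 308, 181 and 193 CPM in treated and 665, 613 and 578 CPM in untreated libraries (log2 change -1.44 ± 0.17). In both genes treated library 1 was the highest treated one and still below all untreated libraries. Wwp1, a ubiquitin ligase, changed by -1.14 ± 0.21, Mapkapk2, a kinase that stabilises cytokine mRNAs, by -1.05 ± 0.21, and Il6st, the shared receptor chain gp130, by -1.03 ± 0.13. Of the less abundant falls, Cobll1 was at 1.04, 1.39 and 0.979 CPM in treated and 7.45, 4.78 and 4.49 CPM in untreated libraries (log2 change -2.28 ± 0.35), and Sntb2, a syntrophin that anchors membrane proteins, was at 17.2, 12.5 and 12.1 CPM in treated and 67.1, 50.6 and 48.9 CPM in untreated libraries (log2 change -2.0 ± 0.20).

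**Figure D4:**
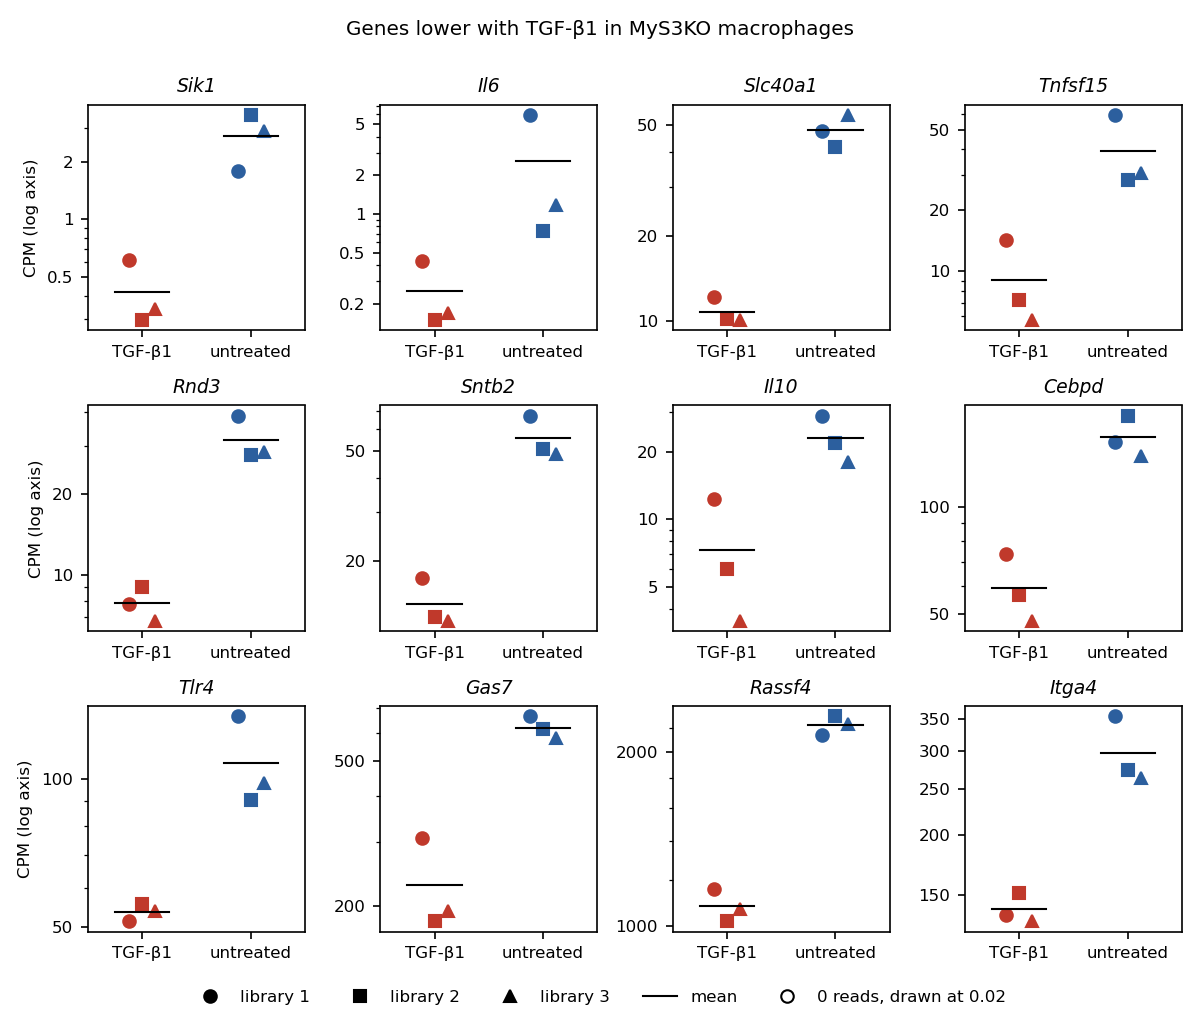
CPM (log axis) of 12 lowered genes in each library, treated MyS3KO on the left (red) and untreated MyS3KO on the right (blue), with circles, squares and triangles for libraries 1, 2 and 3 and a line at the mean of 3. In every panel the 3 treated libraries lie below the 3 untreated ones, and for Il6 untreated library 1 stands far above the other 2.

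A block of liver transcripts also moved with treatment. Of 33 tested members of a hepatocyte list, chosen after their values were seen and therefore given without weight as a count, 26 were called higher and 0 lower (0 lower at unadjusted p under 0.05). Alb, serum albumin, was at 69.3, 93.9 and 71.5 CPM in treated and 15.3, 26.3 and 18.4 CPM in untreated MyS3KO libraries (log2 change 1.97 ± 0.27). Gc, the vitamin D binding protein, was at 4.35, 6.15 and 4.98 CPM in treated and 0.894, 1.53 and 1.08 CPM in untreated libraries (log2 change 2.14 ± 0.35). Summed over the list, levels were 147 to 188 CPM in treated and 40.8 to 66.6 CPM in untreated MyS3KO libraries. They were 77.6 to 106 CPM in treated and 38.1 to 45.7 CPM in untreated MyS2KO libraries, and 21.2 to 40.9 CPM in treated and 29.1 to 43.8 CPM in untreated Smad3fl libraries. Every member had reads in the MyS3KO libraries, although Agt had 0 in untreated library 1. In Smad2fl the sums were 33 to 40.5 CPM in treated and 30.4 to 33.8 CPM in untreated libraries. Where these transcripts come from was not tested. Of the other cell type lists, macrophage markers had 2 of 10 members raised, among them the CSF-1 receptor gene Csf1r (0.57 ± 0.17), and 0 lowered (0 lower at unadjusted p under 0.05). Lists for granulocytes, dendritic cells, T and B cells, megakaryocytes, fibroblasts, endothelium and osteoclasts had 0 calls among 23 tested members by the edgeR test, with 2 osteoclast genes higher at unadjusted p under 0.05. The mast cell, basophil and erythroid markers were too low to be tested.

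The same comparison in Smad3fl macrophages sets the MyS3KO response beside that of cells with the floxed alleles and no Cre. TGF-β1 changed 1713 genes in Smad3fl (12%). Of the 933 genes raised in MyS3KO, 605 (64.8%) were also raised in Smad3fl, which is 66.6% of the 909 raised there. Of the 495 lowered in MyS3KO, 313 (63.2%) were also lowered in Smad3fl, which is 38.9% of the 804 lowered there. The MyS3KO response minus the Smad3fl response was -0.54 ± 0.33 for Smad7 (adjusted p = 0.728), whose log2 change in Smad3fl was 6.25 ± 0.24. For Smad6 it was 1.20 ± 0.44 (adjusted p = 0.728), and for Tgfbi 0.19 ± 0.31 (adjusted p = 0.862). A difference that misses the threshold does not show that the genotypes respond alike: the median standard error of the difference was 0.37 over all tested genes.

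When the difference itself was tested, the response of MyS3KO minus that of Smad3fl was called for 3 of 14261 genes (0.021%), all positive, while 917 genes had an unadjusted p under 0.05 and DESeq2 called 15. They were Id3, Alb and Gc. Id3 was at 13.4, 11.7 and 8.44 CPM in treated and 9.21, 6.39 and 2.44 CPM in untreated Smad3fl libraries, a log2 change of 0.89 ± 0.32. The difference of the MyS3KO response from it was 2.99 ± 0.48 (adjusted p = 0.0377). Both treatments contributed: MyS3KO minus Smad3fl was 1.20 ± 0.31 with TGF-β1 and -1.79 ± 0.36 without (adjusted p = 0.00833 and 0.00158). In the Smad2 line, Id3 was at 18.3, 22.1 and 32.0 CPM in treated and 4.97, 3.78 and 5.28 CPM in untreated MyS2KO libraries, and at 21.4, 18.9 and 18.5 CPM in treated and 2.58, 3.34 and 3.94 CPM in untreated Smad2fl libraries. Among these 4 genotypes the untreated level was lowest in MyS3KO and the treated one lowest in Smad3fl. For Alb the difference was 2.19 ± 0.39 and for Gc 3.00 ± 0.53 (adjusted p = 0.0481 for both), and both are members of the hepatocyte list above. Without the hepatocyte list among the tested genes, 1 difference was called, and without both MyS3KO libraries numbered 1 none was. Over the alternative settings the Id3 difference was called in 8 of 24, with a size of 2.52 to 3.36, the Alb difference in 5 of 23 and the Gc difference in 4 of 23. On the first principal component of all libraries, MyS3KO lay at -0.345 to 18.9 treated and -7.53 to 9.45 untreated and Smad3fl at 66.5 to 83.1 treated and 6.93 to 68.7 untreated, so most Smad3fl libraries stood apart, and its part in these differences was not tested.

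**Figure D5:**
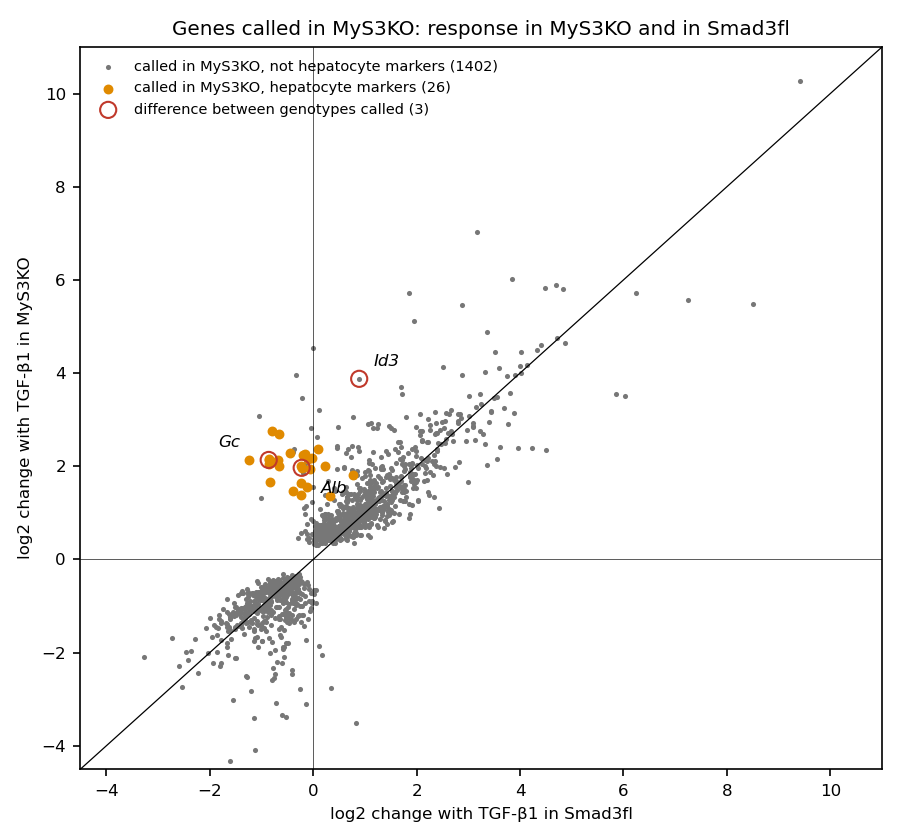
Each point is a gene called in MyS3KO: its log2 change with TGF-β1 in Smad3fl (horizontal) against that in MyS3KO (vertical), with a diagonal at equal change. Hepatocyte markers (orange, 26) lie above the diagonal, most of them at or below 0 in Smad3fl, and circles mark the 3 genes whose difference between genotypes was called, Id3, Alb and Gc.

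Against MyS2KO, in which Smad2 and not Smad3 is targeted, the difference in response was called for 2 genes (0.014%), with 787 genes at unadjusted p under 0.05 and 14 called by DESeq2. Smad2 RNA was not lower in MyS2KO, at 38.7, 47.2 and 34.9 CPM in treated and 41.7, 42.5 and 37.1 CPM in untreated MyS2KO libraries against 39.0, 35.9 and 38.2 CPM in treated and 45.4, 39.6 and 41.5 CPM in untreated Smad2fl libraries. MyS3KO and MyS2KO come from different lines, so a difference of lines and one of the targeted gene cannot be told apart. Chst3 was at 12.1, 11 and 13.8 CPM in treated and 4.12, 3.29 and 4.88 CPM in untreated MyS2KO libraries, a difference of 2.36 ± 0.28 (adjusted p = 0.000166), the 1 positive call (0.00701%). Sntb2 was at 69.1, 58.7 and 54.9 CPM in treated and 49.6, 46.5 and 41.2 CPM in untreated MyS2KO libraries, a difference of -2.41 ± 0.28 (adjusted p = 0.000166), the 1 negative call (0.00701%). Sntb2 was higher with TGF-β1 in Smad2fl as well, at 59.7, 59.4 and 64.3 CPM in treated and 32.1, 33.1 and 46.1 CPM in untreated libraries, and lower with TGF-β1 in Smad3fl, at 30.8, 20.8 and 16.8 CPM in treated and 36.4, 44.8 and 41.2 CPM in untreated libraries. Chst3 levels in Smad2fl were 18.4, 19.2 and 17.7 CPM in treated and 1.91, 1.96 and 1.04 CPM in untreated libraries, and in Smad3fl 9.33, 11.5 and 10.5 CPM in treated and 1.56, 1.35 and 1.31 CPM in untreated libraries. For Sntb2 both genotypes of the Smad3 line thus lay lower with TGF-β1 and both of the Smad2 line higher.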

How the data were processed

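Gene expression was measured by RNA sequencing in 24 libraries, 6 of them MyS3KO. The authors deposited raw read counts per Ensembl gene and FPKM values for the same genes. The submitters' processing notes name Cufflinks 2.1.1, HTSeq 0.6.1 and TopHat2 2.0.9 and the builds GRCm38.p6 and mm10. Which tool did what, and the strand setting, is not given in the sources used here. The deposited FPKM values equal the counts divided by the library total and by 1 length per gene, so they add no second measurement and were not tested. Without the strand setting, overlapping genes and close paralogs are uncertain, and 100 symbols among all deposited genes have more than 1 identifier.

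Of 54532 genes, 26189 had no read in any library and 14261 passed edgeR's filterByExpr with the 8 groups. Counts were scaled by TMM, all 24 libraries entered 1 fit with a mean per group, and changes were tested with the quasi-likelihood test of edgeR 4.0.16 (R 4.3.3), with p-values adjusted by Benjamini and Hochberg over all tested genes. A gene is called at an adjusted p under 0.05. CPM are counts per 1e6 reads of the TMM-scaled total, and the error after ± is the standard error of a log2 change. The difference of responses was an interaction contrast. The median gene-wise coefficient of variation was 21.2%, with 16 residual degrees of freedom. Alternatives used DESeq2 1.42.0, limma-voom 3.58.1, other scalings and filters, fewer libraries and a replicate block. The labels do not say what a library number shares, so the main fit did not pair samples by number. Treated and untreated libraries with the same number deviated together with r = 0.414, 0.0439 and 0.287. Libraries with different numbers had r from -0.421 to 0.285. These values do not decide whether the numbers pair the samples, and the fit with a replicate block called 2749 genes.

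The comparison, gene lists and motifs were chosen with earlier results of these data known, and the hepatocyte list and the fit without it were chosen after its values were seen. Named genes are Smad2, Smad3, Smad4, Lyz2, list members, the 25 largest called rises and falls without overlap of groups and with at least 1 CPM in the higher group, the 12 most abundant called genes that at least doubled or halved, and the 5 most extreme called differences in each direction. Ifi202b and the markers with 0 reads were named after their values were seen, and some genes that the rule or the lists include are not reported here. Promoters come from RefSeq, and intervals of read ratios are exact and cover counting error only.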

Additional observations from a re-analysis of the deposited data

Results flagged for a closer look

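The difference between the TGF-β1 responses of 2 genotypes was called for 5 genes, and each is given as a value of MyS3KO minus the other genotype on the log2 scale. Against Smad3fl, Id3 differed by 2.99, Alb by 2.19 and Gc by 3.00. Alb and Gc are members of the hepatocyte list, which was chosen after its values were seen and whose part was not tested. Against MyS2KO, Chst3 differed by 2.36 and Sntb2 by -2.41. In all 3 treated MyS3KO libraries Chst3 was above, and Sntb2 below, all 3 treated MyS2KO libraries. These libraries also made the calls, so the orderings are no separate support. Chst3 averaged 16.3 CPM in treated MyS3KO and 12.3 CPM in treated MyS2KO libraries, and 1.05 and 4.09 CPM in untreated ones. In proportion, the genotypes thus lay further apart untreated for Chst3. Sntb2 averaged 13.9 and 60.9 CPM treated, and 55.5 and 45.8 CPM untreated.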

How the results depend on the processing

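Counts of the MyS3KO response stayed within 1.5 times of 1428 under RLE scaling, library totals, a mean of at least 1 CPM, DESeq2, limma-voom and the 12 libraries of the Smad3 line. With no filter on low counts 898 genes fell. In the 6 MyS3KO libraries alone 893 genes were called (602 raised and 291 lowered). Leaving out both libraries numbered 2 gave 839 (553 raised and 286 lowered), and both numbered 3 gave 762 (532 raised, 230 lowered and 127 at least halved). Leaving out 1 MyS3KO library at a time gave 914 to 1557 called, 631 to 902 raised, 283 to 655 lowered (283 without treated library 3, 321 without untreated library 1) and 127 to 322 at least halved (127 without untreated library 1, 322 without treated library 1). A replicate block within genotype gave 2749 (1480 raised and 1269 lowered). What a library number shares is not labelled, so whether the numbers pair the samples is not known. The treated MyS3KO library 2 correlated best with untreated library 3, though weakly (r = 0.0951, against 0.0439 with untreated library 2). Treated library 1 correlated best with untreated library 1 (r = 0.414, against -0.26 and -0.302 with untreated libraries 2 and 3). Treated library 3 had r = 0.287 with untreated library 3 and 0.285 with untreated library 2. The cause of these shifts was not tested.

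The number of responses that differ between genotypes was fragile. Against Smad3fl it was 1 with RLE or limma-voom, 0 with library totals, a mean of at least 1 CPM or 12 libraries, 161 with no filter, 15 with DESeq2, 6 with the block, 0 without both libraries numbered 1 or 2, 1 without both numbered 3, 1 without the hepatocyte list and 0 to 6 with 1 library left out. Against MyS2KO it was 131 with no filter, 14 with DESeq2, 54 with the block and 2 to 4 with 1 library left out. Over 148 named genes and all settings, 2598 of 2802 values kept direction and side of the threshold, 188 lost the call, 9 gained it and 7 changed sign. The gained calls were falls of Ccl3 (6 of 19 settings), Il1b (2 of 19) and Myc (1 of 19). Calls were lost in 11 of 17 settings for Ccl22 and in 10 of 19 for both Mcm4 and Csf1r. The sign changes were in uncalled genes: with 1 library left out, Lyz2 ranged over -0.80 to 0.29, Ifi202b over -0.93 to 0.21 and Tgfb1 over -0.33 to 0.10, and Tgfb1 was at 0.13 without both libraries numbered 2. Depth limits what was tested: genes below the filter, among them most markers of other cell types, are not shown to be absent.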
